A study of Mus musculus with 8 samples.

Results

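Dpm2 and Pgap2, genes that act at the supply and at the finishing of glycosylphosphatidylinositol (GPI) anchors, were followed together with 8 other genes of the pathway (Dpm1, Dpm3, Piga, Pigk, Pigt, Pigs, Pigu and Gpaa1) in microglia sorted from the mouse optic nerve. The 10 genes were found by symbol among the 37447 genes of the deposited table. Dpm2 and Pgap2 were picked because their values differ between the genotypes. The other 8 were picked by function, with earlier results of these data known, to see whether they do the same. The libraries came from C57BL/6 mice at 3 months of age. All mice carried Nf1 flox/flox, that is, alleles of the neurofibromatosis gene that Cre recombinase can delete. The 4 FF libraries had no Cre, and the 4 FFC libraries came from mice that also carried GFAP-Cre. There Cre is under the promoter of Gfap, an astrocyte gene, while the cells sorted here were microglia. Which cells had the deletion was not tested. Each genotype had 2 female and 2 male libraries. The labels call them biological replicates and do not say whether a library is 1 animal or a pool, so the p-values measure the spread between these libraries.

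A GPI anchor is a glycolipid that is built stepwise on the membrane of the endoplasmic reticulum and then joined to the end of a protein, which it holds at the cell surface. Its mannose residues come from dolichol-phosphate mannose, made by a synthase with the catalytic subunit Dpm1, the small membrane subunit Dpm3 that holds Dpm1 in place, and Dpm2, which stabilizes the complex and also associates with the enzyme of the first step. Piga is the catalytic subunit of that first enzyme, a GlcNAc transferase. The transamidase of Pigk, Pigt, Pigs, Pigu and Gpaa1 attaches the finished anchor, and Pgap2 acts afterwards in the remodelling of its lipid. Microglia carry GPI-anchored proteins such as Cd14 and Cd48.

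The upstream sequences of the genes picked for their difference, and of the transamidase subunit with the highest values, are shown because all 3 had their 4 highest values in the FFC libraries as deposited, which for Pigt did not hold after scaling. Each has the 250 bases before an annotated start, 5′ to 3′, from RefSeq on GRCm38.p6, a later build than the mm9 of the deposited table. RefSeq gave such windows for 8 of the 10 genes, and none for Pigk and Gpaa1. These also had their 4 highest values in the FFC libraries as deposited, and for Pigk this held after scaling. Capitals mark matches, on either strand, to the GC box (GGGCGG), the CCAAT box (CCAAT), an ETS core (CCGGAA), an E-box (CACGTG) or a TATA box (TATAAA), and none of the matches overlap each other in these windows.
Dpm2 (plus strand, chr2:32570608-32570857): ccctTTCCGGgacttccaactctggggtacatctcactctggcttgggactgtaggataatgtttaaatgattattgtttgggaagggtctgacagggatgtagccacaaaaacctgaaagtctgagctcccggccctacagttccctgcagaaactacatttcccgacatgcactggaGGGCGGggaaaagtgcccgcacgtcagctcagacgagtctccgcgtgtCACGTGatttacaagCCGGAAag
Pgap2 (plus strand, chr7:102222778-102223027): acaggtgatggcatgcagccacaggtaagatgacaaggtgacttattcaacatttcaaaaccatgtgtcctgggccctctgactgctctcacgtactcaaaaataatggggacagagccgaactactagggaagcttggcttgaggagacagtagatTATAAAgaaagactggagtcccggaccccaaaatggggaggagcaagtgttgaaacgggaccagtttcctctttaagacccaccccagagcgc
Pigt (plus strand, chr2:164497275-164497524): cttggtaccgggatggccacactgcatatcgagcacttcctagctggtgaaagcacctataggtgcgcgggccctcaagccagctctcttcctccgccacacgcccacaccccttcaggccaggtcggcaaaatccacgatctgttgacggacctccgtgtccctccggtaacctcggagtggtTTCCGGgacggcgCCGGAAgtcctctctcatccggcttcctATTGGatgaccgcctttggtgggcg
The Dpm2 window lies outside annotated exons in GENCODE M21, while 20 bases of the Pgap2 window and 5 bases of the Pigt window are annotated there as exon of the same gene. Dpm2 held 1 GC box, 2 ETS cores and 1 E-box. The Pgap2 window, the 1 of 5 annotated for that gene with the fewest exon bases, held 1 TATA box, and Pigt held 1 CCAAT box and 2 ETS cores. Other Pgap2 windows held other matches. The window at chr7:102209923-102210172 held 2 GC boxes, and that at chr7:102210085-102210334 held 1 GC box and 2 CCAAT boxes. The window at chr7:102210261-102210510 held none, and that at chr7:102222821-102223070 held 1 GC box and 1 TATA box. On the plus strand, the printed Pgap2 window lies downstream of all of these except the last. It thus precedes a later annotated start of the gene and not its first. No kind of match was common to the 3 printed windows. Among all 32851 windows of this length, 32.7% held a GC box, 33.8% a CCAAT box, 12% an ETS core, 6.02% an E-box and 12.4% a TATA box.

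Values are FPKM (fragments scaled to transcript length and to the mapped total of the library), and differences are between mean log2(FPKM + 1) in FFC and FF, which understates the change of low genes. Summed FPKM per library ranged from 367760 to 700291 over the genes with a value in every library, and read depth is unknown because the table holds no counts. FF 2 and FF 4 resembled the other libraries least (median Spearman correlation 0.398 and 0.464, against 0.507 to 0.597 for the other 6), so results that rest on them are also given without them. Defining microglial markers were present in all libraries, with a summed level of 8 genes of 1475 to 4375 FPKM in FF and 2988 to 4711 in FFC. Summed markers of other cells overlapped between the genotypes for astrocytes (6 genes, 113 to 320 FPKM in FF and 91.6 to 186 in FFC), oligodendrocytes (5 genes, 3.17 to 37.7 and 6.29 to 42.8), their precursors (2 genes, 1.28 to 5.96 and 0.116 to 2.37), endothelium (4 genes, 13.9 to 32.7 and 2.96 to 14.2), neutrophils (3 genes, 183 to 2120 and 2.66 to 653) and border macrophages (3 genes, 136 to 390 and 41.0 to 224). They did not overlap for erythroid cells (4 genes, 50.1 to 207 FPKM in FF and 23.2 to 50.0 in FFC) or T cells (3 genes, 19.9 to 113 and 3.99 to 15.7). The sums hide single markers. Those without overlap were all lower in FFC. They were the astrocyte marker Clu (23.4 to 127 FPKM in FF and 0.0124 to 3.45 in FFC) and the T cell marker Lck (14.6 to 79.7 and 0.386 to 5.96). The others were the precursor marker Pdgfra (0.202 to 5.92 and 0.0248 to 0.0807) and the erythroid marker Alas2 (0.563 to 15.4 and 0.0697 to 0.360). Cd3d and Cd3e overlapped. Of all these markers 0 were at 0 in every library, and 3 astrocyte, 2 oligodendrocyte, 1 endothelial, 1 neutrophil and 1 T cell marker were listed at 0 in at least 1 library. In bulk RNA, fewer cells of a type and less RNA per cell cannot be told apart, and the part of these other cells in the differences below was not tested.

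Within the mannose donor synthase, the small subunit Dpm2 was high in FFC and low in FF, while its partners showed no such split. Dpm2 (ENSMUSG00000026810, chr2:32426378-32429099 in mm9) measured 1.64, 5.73, 1.28 and 1.78 FPKM in FF, against 71.9, 17.5, 39.6 and 28.2 in FFC, each in the order of replicates 1 to 4, as for all genes below. The lowest FFC library lay above the highest FF library, FF 2, and FFC 1 was the highest of all. Its difference was 3.45 ± 0.75 (SE of the limma fit, n = 4 per genotype here and below), a value given as a description because the gene was picked for it. Within the libraries with November in their titles (3 FF and FFC 1) the difference was 4.41, and within those with December (FF 4 and 3 FFC) it was 3.33. Month thus goes largely with genotype, and the labels do not say what the date marks. Each within-month difference rests on 1 library of 1 genotype. Without FF 2 and FF 4 the difference of Dpm2 was 3.86.

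The catalytic subunit Dpm1 (ENSMUSG00000078919, chr2:168034548-168056091) varied most among the FF libraries. It measured 279, 3.17, 31.6 and 13.7 FPKM in FF, against 12.9, 25.6, 51.8 and 16.2 in FFC, so the FFC values lay inside the FF range. Its difference of -0.18 ± 1.07 (95% interval -2.50 to 2.13; limma adjusted p = 0.972) was 0.93 without FF 1, 0.079 without FFC 1, -1.09 without FF 2 and -1.99 without FF 2 and FF 4. The table also has a longer gene model, RP23-391M18.7 (chr2:168006486-168055864), that spans its neighbour Adnp and most of Dpm1. That model had 0.159 FPKM in FF 1, where Dpm1 was at its highest, and 6.02 to 38.2 in the other 7 libraries, so the split of fragments between the models of this locus is uncertain.

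Dpm3 (ENSMUSG00000042737, chr3:89063280-89071001), the membrane tether of Dpm1, was abundant in both genotypes. It measured 220, 226, 27.6 and 45.7 FPKM in FF, against 87.9, 197, 88.1 and 147 in FFC. Here FF 1 and FF 2 were the highest libraries and FF 3 and FF 4 the lowest, with all FFC libraries between them. The difference was 0.45 ± 0.73 (95% interval -1.13 to 2.02; limma adjusted p = 0.873), and it was -0.11 without FF 3, 0.13 without FF 4, 0.22 without FFC 2, 0.88 without FF 1 and 0.89 without FF 2.

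As a share of the summed FPKM of the 3 subunits, Dpm2 made up 0.327%, 2.44%, 2.11% and 2.91% in the FF libraries, against 41.6%, 7.31%, 22.1% and 14.7% in the FFC libraries. Dpm3 was the largest share in FF 2, FF 4 and all FFC libraries, and Dpm1 in FF 1 and FF 3.

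**Figure D1:**
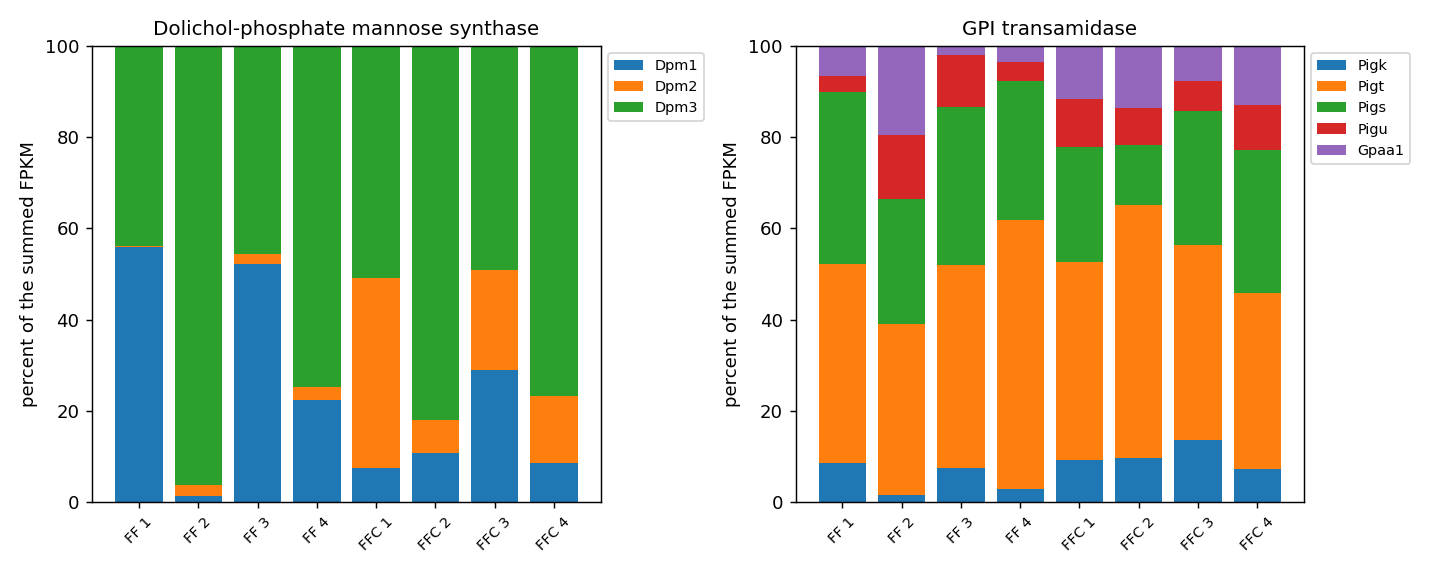
Share of each subunit in the summed FPKM of its complex, in percent (y axis), for each library (x axis), with the 3 subunits of dolichol-phosphate mannose synthase on the left and the 5 subunits of the GPI transamidase on the right. Dpm2 is at most 2.91% of its complex in FF and at least 7.31% in FFC, and Pigt is the largest share of the transamidase in all 8 libraries.

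Pgap2 (ENSMUSG00000030990, chr7:109358722-109387081), the lipid remodelling factor, showed the same split as Dpm2. It measured 0.871, 4.25, 8.05 and 0.855 FPKM in FF, against 58.6, 128, 32.1 and 18.4 in FFC. FFC 2 was the highest library here, where FFC 1 was for Dpm2, and the lowest FFC library (FFC 4) was above the highest FF library (FF 3). The difference was 3.72 ± 0.84, again as a description, with 3.74 within the November libraries, 4.56 within the December libraries and 3.52 without FF 2 and FF 4. Of the 10 members, Dpm2, Dpm3, Pgap2, Piga, Pigt, Pigs and Gpaa1 have no other gene of the table overlapping them. The nearest genes to Dpm2, Fam102a and 9430097D07Rik, had 0.0971 to 13.9 and 0 to 5.59 FPKM in FF and 0.275 to 8.99 and 0 to 2.58 in FFC. Nup98, which ends 87 bases before Pgap2, had 5.42 to 21.0 FPKM in FF and 10.7 to 34.9 in FFC, and Rhog, 555 bases after it, had 21.5 to 220 and 160 to 285. All 4 neighbours overlapped between the genotypes.

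Of the GlcNAc transferase of the first step, the catalytic subunit Piga was low. Piga (ENSMUSG00000031381, chrX:160857725-160871848) measured 1.8, 0.464, 0.160 and 0.189 FPKM in FF, against 0.494, 0.565, 1.75 and 0.129 in FFC. FF 1 and FFC 3 were the highest libraries and the genotypes overlapped. With a mean under 1 FPKM, Piga was left out of the fit, so 9 of the 10 members were tested.

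All 5 subunits of the transamidase had higher means in FFC, as did 56.7% of all tested genes, and no single subunit passed the test over all genes. Pigk (ENSMUSG00000039047, chr3:152377064-152643372), the catalytic protease-like subunit, measured 11.7, 1.08, 14.4 and 4.13 FPKM in FF, against 21.2, 31.1, 29.5 and 29.1 in FFC. Every FFC library was above every FF library, with FF 2 and FF 4 the lowest. Its difference was 2.07 ± 0.78 (95% interval 0.40 to 3.75; limma adjusted p = 0.712), and it was 1.02 without FF 2 and FF 4. Within the Pigk locus the table lists 5 other genes, of which the pseudogene Rpl29-ps1 reached 28.2 FPKM in FFC 2 and was at most 2.59 elsewhere.

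Gpaa1 (ENSMUSG00000022561, chr15:76161661-76165337), which contributes to joining the anchor to the protein, measured 9.25, 14.2, 3.86 and 5.13 FPKM in FF, against 26.9, 44.0, 16.7 and 51.6 in FFC. The lowest FFC library, FFC 3, lay just above the highest FF library, FF 2. Its difference was 2.00 ± 0.71 (95% interval 0.48 to 3.52; limma adjusted p = 0.712), and 2.22 without FF 2 and FF 4. The genotypes did not overlap as deposited, but after upper-quartile scaling the highest FF value was 18.3 and the lowest FFC value 15.6.

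Pigt (ENSMUSG00000017721, chr2:164323020-164333801), the subunit that holds the complex together, had the highest FPKM of the 5 in all 8 libraries. It measured 60.6, 27.5, 84.5 and 85.5 FPKM in FF, against 100.3, 181, 93.1 and 154 in FFC. The genotypes were separate only by the step from 85.5 in FF 4 to 93.1 in FFC 3, and they overlapped after upper-quartile scaling (highest FF 112, lowest FFC 87.1) and quantile normalization (106 and 102). The difference was 1.09 ± 0.58 (95% interval -0.15 to 2.33; limma adjusted p = 0.759), and it was 0.74 without FF 2 and 0.82 without FF 2 and FF 4.

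Pigu (ENSMUSG00000038383, chr2:155072732-155183166), thought to help recognize the anchor, measured 4.68, 10.3, 21.7 and 5.92 FPKM in FF, against 24.4, 26.6, 14.3 and 39.1 in FFC. The overlap came from FF 3 and FFC 3. Its difference was 1.35 ± 0.71 (95% interval -0.18 to 2.89; limma adjusted p = 0.759). The table lists 3 genes that overlap Pigu. Dynlrb1, a dynein light chain gene whose model overlaps the edge of Pigu, had 21.2 to 81.6 FPKM in FF and 116 to 170 in FFC. Inside Pigu, Map1lc3a had 23.1 FPKM in FF 3 and at most 6.87 elsewhere. Mir695, also inside it, had 1018 FPKM in FF 1 and at most 250 elsewhere. How fragments were split between these models was not tested.

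Pigs (ENSMUSG00000041958, chr11:78141917-78156284), another structural subunit, differed least. It measured 52.1, 19.9, 66.1 and 44.5 FPKM in FF, against 58.2, 42.7, 64.2 and 125 in FFC. Apart from a low FF 2 and a high FFC 4 the libraries lay in the same range, between 42.7 and 66.1 FPKM. The difference of 0.66 ± 0.62 (95% interval -0.67 to 1.99; limma adjusted p = 0.765) was 0.32 without FF 2, 0.36 without FFC 4 and 0.18 without FF 2 and FF 4.

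**Figure D2:**
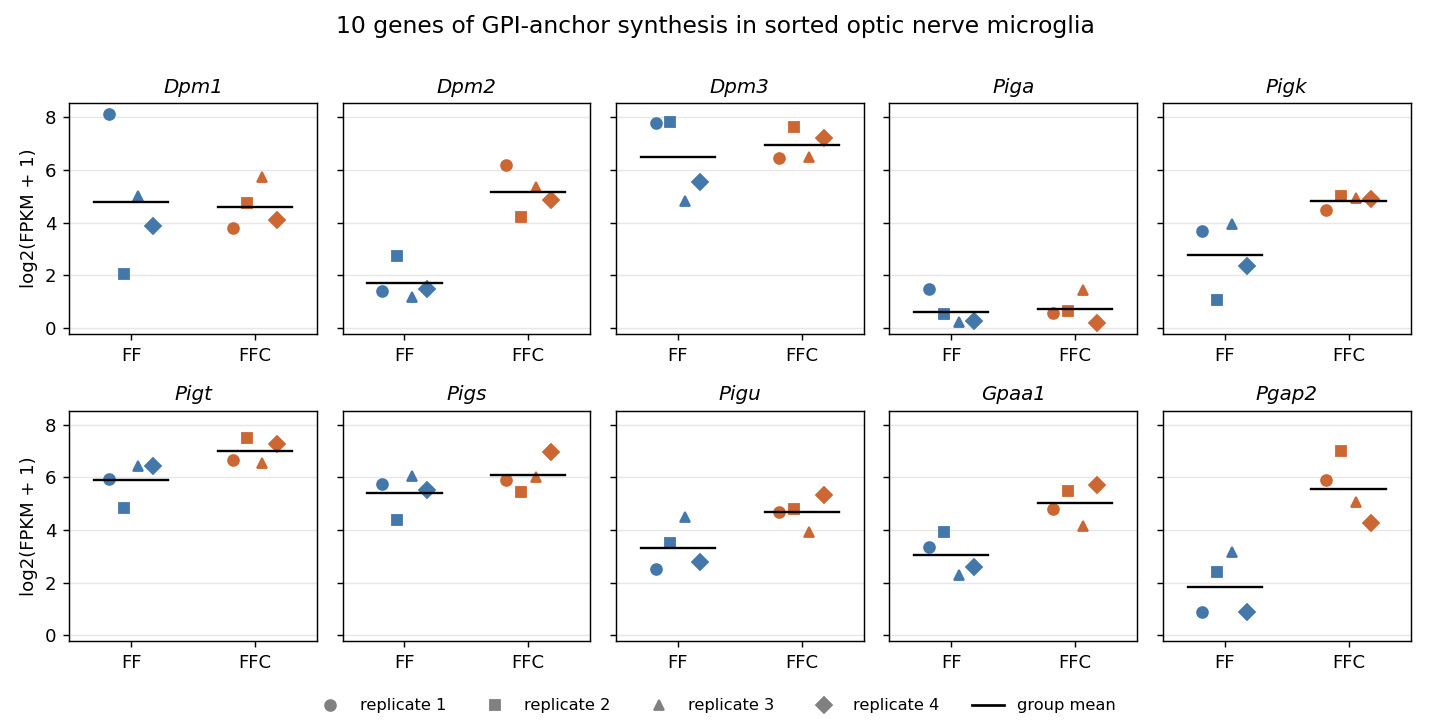
Levels of the 10 genes as log2(FPKM + 1) (y axis) in the 4 FF and the 4 FFC libraries (x axis), with 1 symbol per replicate number and a black line at the group mean. Dpm2, Pgap2, Pigk, Pigt and Gpaa1 are separate between the genotypes as deposited, Pigt and Gpaa1 no longer after scaling, and Dpm1, Dpm3, Piga, Pigs and Pigu overlap.

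In the genotype comparison limma called none of the 17753 genes, that is 0 (0%; smallest adjusted p = 0.382; 1146 genes at an unadjusted p under 0.05), and therefore 0 of the 9 tested members. A gene counts as separate when all 4 FFC libraries are above all 4 FF libraries, which 3.05% of tested genes were, and 3.93% of the 10245 genes averaging 5 FPKM or more. At an unadjusted p under 0.05, 4.52% of genes were higher and 1.94% lower in FFC, and of the members besides Dpm2 and Pgap2 these held Pigk and Gpaa1 by limma. Of the 7 tested members besides Dpm2 and Pgap2, 3 were separate in this way (Pigk, Pigt and Gpaa1), and 6 had a higher mean in FFC. A higher mean in FFC was also seen in 56.7% of all tested genes and in 64.5% of those averaging 5 FPKM or more. The counts of higher means in the gene lists below are to be read against these shares. After upper-quartile scaling, when 2.53% of genes were separate, Pigk alone of the 7 was. The median difference of the 7 was 1.09, against 0.19 over all tested genes and 0.38 over genes averaging 5 FPKM or more. An exact two-sided permutation test over the 70 arrangements of the libraries, unadjusted, gave 0.0286 for Pigk, Pigt and Gpaa1, the smallest p possible and the one any separate gene gets. It gave 0.0571 for Pigu, 0.286 for Pigs, 0.571 for Dpm3 and 0.886 for Dpm1.

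The order of the members by mean log2 level differed between the genotypes for Dpm1, Dpm2, Pgap2 and Pigu by 3 places or more. In FF it ran Dpm3, Pigt, Pigs, Dpm1, Pigu, Gpaa1, Pigk, Pgap2, Dpm2, Piga, and the single step larger than the SD of both neighbours was the last one, from Dpm2 (1.70 ± 0.71 SD) to Piga (0.63 ± 0.59). In FFC it ran Pigt, Dpm3, Pigs, Pgap2, Dpm2, Gpaa1, Pigk, Pigu, Dpm1, Piga. There the steps from Dpm3 (6.95 ± 0.57) to Pigs (6.08 ± 0.64) and from Dpm1 (4.59 ± 0.85) to Piga (0.71 ± 0.54) were larger than the SDs. Dpm1 stood at place 4 in FF and 9 in FFC, and Pigu at place 5 and 8. Dpm2 stood at place 9 in FF and 5 in FFC and Pgap2 at place 8 and 4, with mean log2 levels in FFC of 5.15 ± 0.83 and 5.56 ± 1.17, next to Gpaa1 at 5.04 ± 0.71.

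The remaining genes of GPI synthesis and remodelling did not follow as a group. Of 27 entries besides the members, 22 were tested, 12 had a higher mean in FFC and 10 a lower one, and the median difference was 0.04, below the 0.19 of all tested genes. Limma called 0 of them, and 2 were separate with FFC above (Pigb and Pigh). Pigb, which adds the third mannose to the anchor, measured 4.62, 2.42, 4.63 and 4.93 FPKM in FF, against 11.5, 17.0, 11.1 and 22.5 in FFC. The genotypes were separate under both scalings too, with a difference of 1.66 ± 0.70 (limma adjusted p = 0.729). A shorter second entry of the same symbol had a mean under 1 FPKM. Of the other 4 tested mannosyltransferase entries, Pigm was the nearest to Pigb by its p, with 1.29 to 3.84 FPKM in FF and 0.980 to 11.7 in FFC.

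Beside Piga in the GlcNAc transferase, Pigh had 0.0207 to 0.619 FPKM in FF and 0.704 to 5.38 in FFC, separate as deposited and overlapping after upper-quartile scaling or quantile normalization (difference 1.09 ± 0.72, or 0.70 without FFC 2; limma adjusted p = 0.759). Pigc, another subunit of that enzyme, had 12.5 to 60.2 FPKM in FF and 3.27 to 16.6 in FFC, a difference of -1.21 ± 0.77 (limma adjusted p = 0.759) that was -0.77 without FFC 4 and -0.78 without FF 1. The deacetylase Pigl, which acts next, had 0.197 to 24.1 FPKM in FF and 3.70 to 21.6 in FFC, and the acyltransferase Pigw had 0.0331 to 12.3 and 0 to 16.3.

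The genes of the ethanolamine phosphate transferases, enzymes that add ethanolamine phosphate to the anchor, had 1 higher and 3 lower means among 4 tested (median -0.31). Pigf had 0.615 to 12.6 FPKM in FF and 1.99 to 25.4 in FFC, and Pigg 0.455 to 11.6 and 0.626 to 3.64. Of the 8 tested remodelling and export genes besides Pgap2, 4 were higher and 4 lower (median 0.01). Mppe1, which trims an ethanolamine phosphate from the anchor, had 0.946 to 4.48 FPKM in FF and 0 to 1.50 in FFC (difference -1.24 ± 0.73; limma adjusted p = 0.759). Tmem8 had 0.610 to 28.1 FPKM in FF and 0.827 to 9.27 in FFC. None of these 4 genes was separate between the genotypes.

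**Figure D3:**
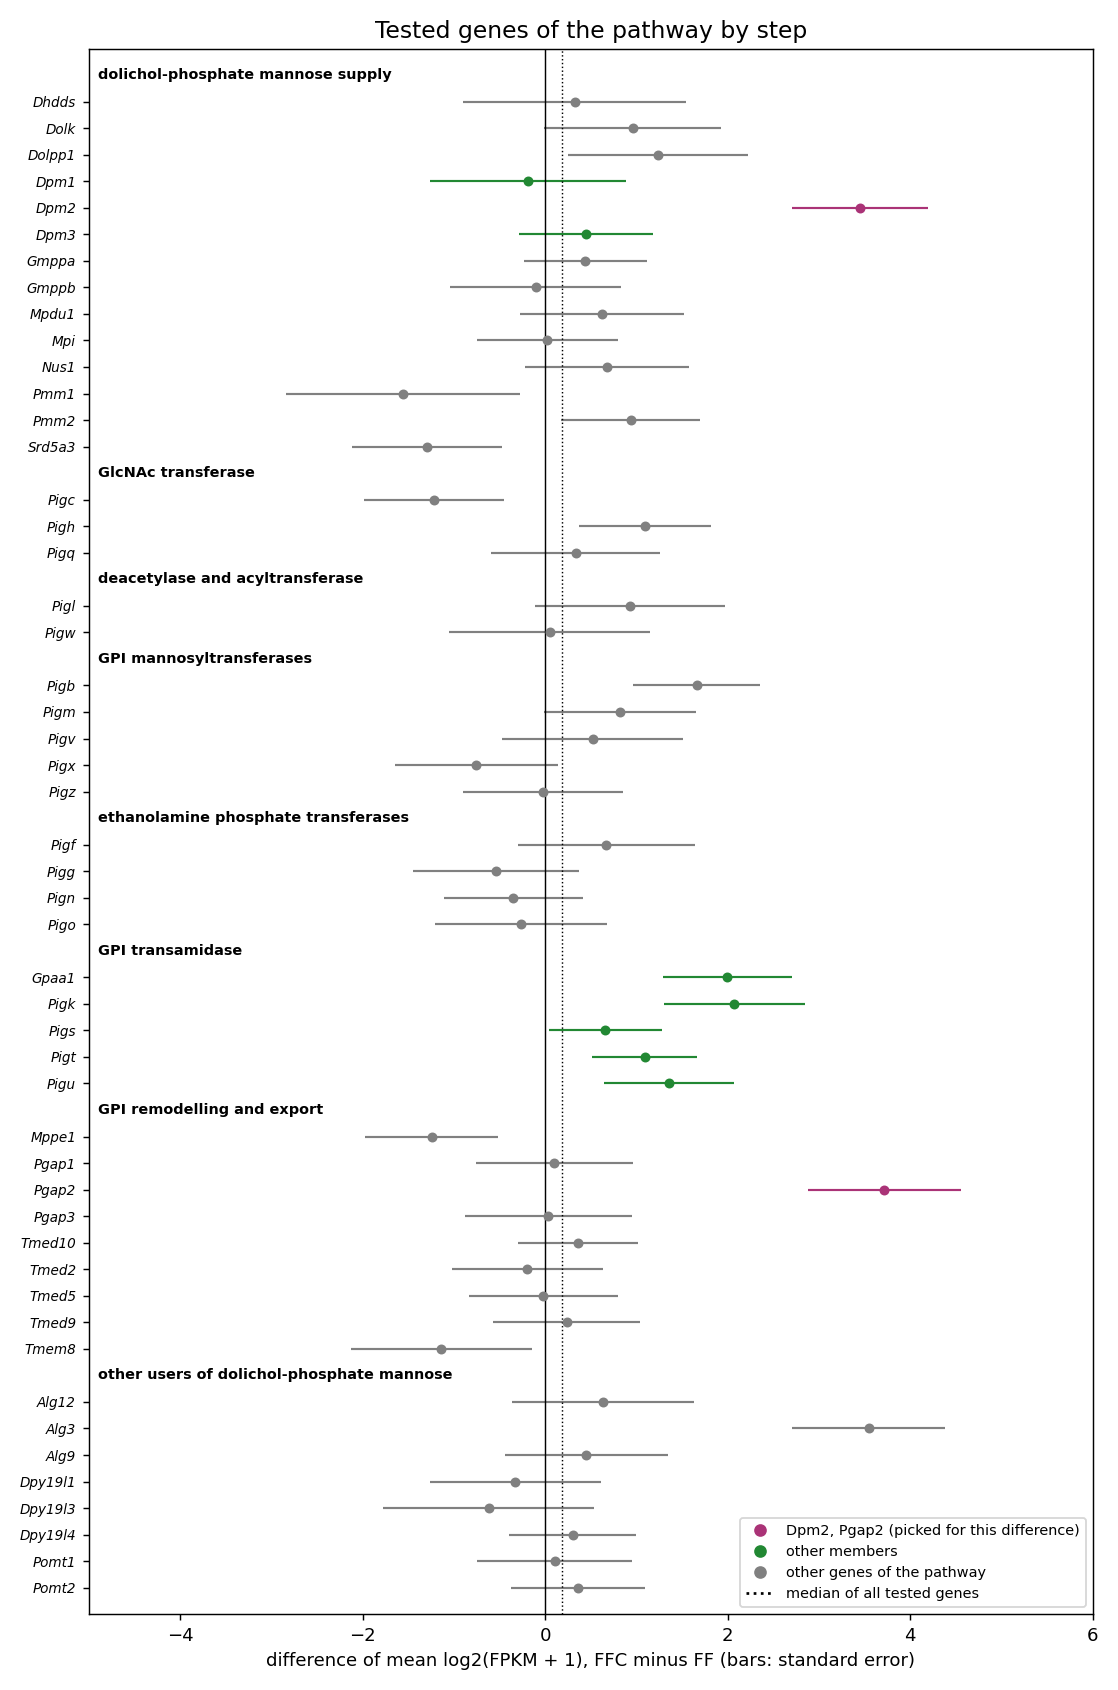
Differences of mean log2(FPKM + 1), FFC minus FF (x axis), with standard errors as bars, for the tested genes of the pathway in order of the steps (y axis), where the dotted line marks the median of all tested genes (0.19). Dpm2, Pgap2 and Alg3 lie between 3.45 and 3.72, the 5 transamidase genes between 0.66 and 2.07, and the genes of the other steps on both sides of 0.

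Supply of the mannose donor besides its synthase was also mixed, with 8 of 11 tested genes higher in FFC, 3 lower, a median of 0.44 and 0 called by limma. Srd5a3, a reductase that makes dolichol, had 11.6 to 91.9 FPKM in FF and 4.43 to 26.4 in FFC (difference -1.30 ± 0.82; limma adjusted p = 0.759), with -0.82 without FFC 1 and -0.83 without FF 1. Dolpp1, which recycles the dolichol carrier, had 0 to 12.8 FPKM in FF and 2.07 to 19.0 in FFC (difference 1.23 ± 0.98; limma adjusted p = 0.759), with 0.70 without FFC 4, 0.74 without FF 4, 2.00 without FF 1 and 0.25 without FF 2 and FF 4.

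Among 8 other enzymes that use the same donor, 6 were higher and 2 lower (median 0.33), and 1, Alg3, was separate. Alg3, the mannosyltransferase that first uses dolichol-phosphate mannose in N-glycan assembly, measured 3.09, 0.0737, 6.17 and 11.4 FPKM in FF, against 34.0, 55.2, 34.8 and 102 in FFC. The lowest FFC library was well above the highest FF library, FF 4, under both scalings too. Its difference of 3.54 ± 0.84 (limma adjusted p = 0.496) was of the size of those of Dpm2 and Pgap2, and was 3.26 without FF 2 and FF 4. Alg12, a later mannosyltransferase of that assembly, had 0.00807 to 10.6 FPKM in FF and 0.764 to 10.2 in FFC (difference 0.63 ± 0.99; limma adjusted p = 0.866). Its difference was 0.021 without FF 1, 1.2 without FF 2 and 1.98 without FF 2 and FF 4.

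Transcripts of proteins that carry the anchor were measured as the pathway's clients. Of 18 listed, 15 were tested, 11 were higher and 4 lower in FFC, with a median of 1.03, and limma called 0. Ly6a, a leukocyte surface protein of the Ly6 family that interferon induces, measured 57.2, 17.1, 36.4 and 18.5 FPKM in FF, against 607, 64.0, 126 and 66.5 in FFC. It was the 1 separate gene of the list (difference 2.20 ± 0.77; limma adjusted p = 0.712), with FFC 1 far above the rest. After upper-quartile scaling Ly6a was barely separate (highest FF 48.1, lowest FFC 48.5), as after quantile normalization (46.4 and 49.3). Ly6e, a relative of Ly6a, had 108 to 495 FPKM in FF and 390 to 643 in FFC, which overlapped (1.07 ± 0.53; limma adjusted p = 0.759), with 0.68 without FF 4 and 0.34 without FF 2 and FF 4.

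**Figure D4:**
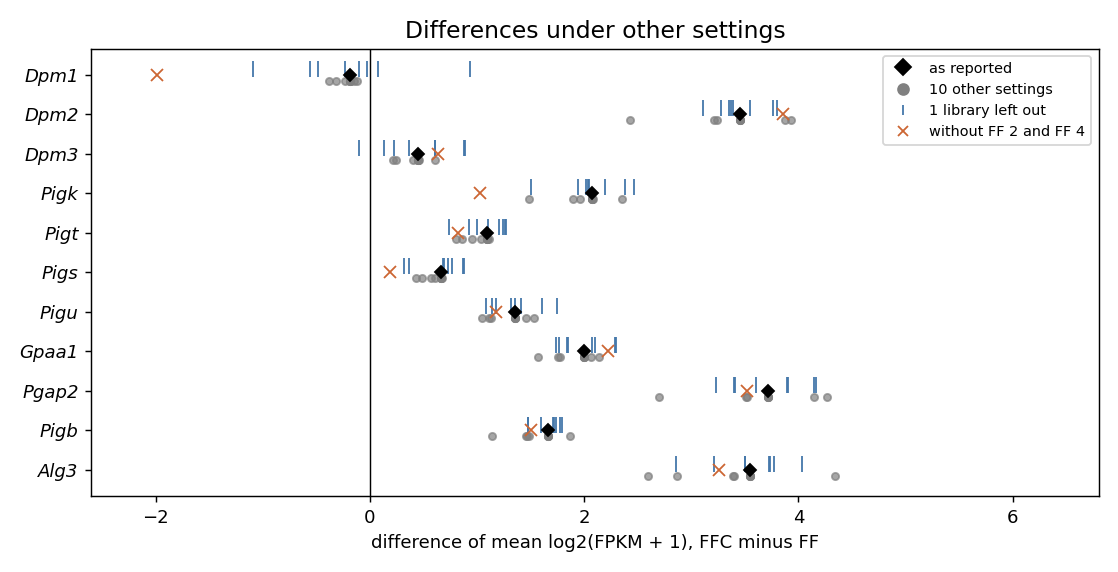
Differences of mean log2(FPKM + 1), FFC minus FF (x axis), for the 9 tested members, Pigb and Alg3 (y axis) as reported, under 10 other settings of the analysis, with 1 library left out and without FF 2 and FF 4. Dpm2 stays between 2.43 and 3.93 and Pgap2 between 2.70 and 4.27, while Dpm1 lies on both sides of 0.

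Sex played no part in the choice of the genes and was compared with genotype as a covariate. Limma called 0 of 17753 genes between males and females (0%; smallest adjusted p = 0.152; 709 genes at an unadjusted p under 0.05). Dpm2 had a male minus female difference of -0.11 ± 0.78 (adjusted p = 0.998), and Pgap2 one of 1.41 ± 0.78 (adjusted p = 0.953). For the other 7 tested members the adjusted p ranged from 0.960 to 0.999. The FFC minus FF difference of Dpm2 was 4.09 in females and 2.81 in males, that of Pgap2 was 4.19 and 3.25, and that of Dpm1 was -2.05 and 1.68. The interaction of sex and genotype was called for 0 of 17753 genes by limma (0%; 567 at an unadjusted p under 0.05), and for all 9 tested members its adjusted p was 1.00.

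The genes whose values over the 8 libraries most resembled those of Dpm2, by Pearson correlation of log2(FPKM + 1) among 8444 genes averaging 5 FPKM or more, were Pydc4 (r = 0.953), Usp15 (0.949), Rnf2 (0.944), Ddx58 (0.941) and Ifi44 (0.939). Pydc4 had 1.40 to 8.27 FPKM in FF and 11.9 to 35.0 in FFC. Ddx58, which encodes the RNA sensor RIG-I, had 7.26 to 14.3 and 28.5 to 49.9, and like Dpm2 was highest in FFC 1. Those most like Pgap2 were Nln (r = 0.962), Btaf1 (0.956), Tmem150a (0.955), Med13l (0.950) and Polr1a (0.950). Tmem150a had 0.0964 to 1.58 FPKM in FF and 6.43 to 57.4 in FFC, with FFC 2 highest as for Pgap2. All 10 genes were separate between the genotypes, which any gene this close to Dpm2 or Pgap2 tends to be, and the points share their libraries, so the correlations describe these 8 libraries.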

How the data were processed

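The authors deposited FPKM values for 37447 genes and 8 libraries of amplified cDNA. The submitters' processing notes list the build mm9, Cufflinks 2.0.2, Bowtie2 2.0.0, TopHat2 2.0.4 and CASAVA 1.8.2, with no role or order. Annotation and strand settings were not found in the labels. Genes lacking a value in any library (447) were left out. Values were used as log2(FPKM + 1), without further scaling, for the 17753 genes averaging 1 FPKM or more. FPKM hold no counts, so no counting interval can be given. Starts in the table count from 0 (21680 genes then have their length in GENCODE M21, 420 otherwise) and are printed counted from 1.

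Genotypes were compared in R 4.3.3 by limma 3.58.1 (empirical Bayes with trend, two-sided, Benjamini-Hochberg adjustment over all tested genes, threshold 0.05), sex with genotype as a covariate. On simulated data the test recovered most of the very large changes and few or none of the size seen in Pigk and Gpaa1 or smaller, so a missed threshold does not show that a gene did not differ. Python 3.11.15 did the rest. The members and lists were chosen with earlier results of these data known. Named were all members, the 2 other genes of each list with the smallest unadjusted p, the 5 genes most like Dpm2 and Pgap2 each (pseudogenes, predicted genes and small RNAs left aside), and their neighbours. Same-numbered FF and FFC libraries are not said to share an animal or day.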

Additional observations from a re-analysis of the deposited data

Results flagged for a closer look

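Among 72 groups of 4 libraries looked at on the log2(FPKM + 1) scale (the members, the named genes of each list and the genes most like Dpm2 and Pgap2), 2 had 1 library far from the other 3 by Dixon's test, and chance gives about 1 in 20. Pigb, the mannosyltransferase, had 2.42 FPKM in FF 2 against 4.62 in the nearest FF library. Mppe1 had 1.50 FPKM in FFC 3 against 0.153 in the nearest FFC library. None of the 10 members was among them, and the sexes did not go opposite ways without overlap in any member.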

How the results depend on the processing

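Under 19 other settings of the genotype comparison, limma called 0 members in each. Dpm2, Pgap2, Pigk, Pigt, Pigs, Pigu, Gpaa1, Pigb and Alg3 kept their sign. For all of these but Pigs and Pigu, every FFC value was above every FF value as deposited. Leaving libraries out could therefore not turn their sign, and those settings say nothing about it. The median difference of the 7 tested members besides Dpm2 and Pgap2 lay between 0.80 and 1.26 (0.89 to 1.26 with 1 library left out). Over all genes 0 were called except with 1 library left out, where the count was 0 to 1 (Mir15a without FF 1 and SNORA65 without FFC 4, both named after their values were seen). Between the sexes it was 0 to 3 with 1 library left out (AL683882.1 and AC127419.1 without FF 2; AC123803.1, AL808131.1 and AC123619.1 without FF 4, named likewise) and 0 otherwise. Signs turned for these differences, and the cause was not tested: Dpm1 ranged from -1.09 to 0.93 with 1 library left out (0.93 without FF 1, 0.079 without FFC 1), Dpm3 was -0.11 without FF 3, Pigl was -0.81 without FF 2 and FF 4, and Pigf -0.11 in that setting and -0.014 without FFC 3. Pigw was -0.083 after upper-quartile scaling, -0.27 after quantile normalization, -0.40 without FF 1, -0.32 without FF 3 and between -0.83 (without FFC 1) and 0.82 (without FF 2) with 1 library left out. Alg12 was -0.26 with month as a covariate. Within the November and December libraries, Dpm1 was -1.27 and 0.98 and Dpm3 was -0.34 and 1.56, while the other tested members were higher in FFC in both. With the replicate number as a block, limma called 0 genes (1014 at an unadjusted p under 0.05). Deviations of same-numbered libraries correlated at -0.0516 to 0.0344, inside the -0.118 to 0.118 of differently numbered ones. Same-numbered libraries were of the same sex, and those numbered 1 and 4 also had the same month in their titles. Whether they share more than that was not tested. All genes shifted by a median of 0.19 as deposited and 0.03 after either scaling. Unknown depth limits what can be said of Piga and other genes near 1 FPKM.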

Other observations

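Pigp, a small subunit of the GlcNAc transferase, has no value in FFC 3 and was left out of every fit. It measured 73.3, 4.70, 51.8 and 63.0 FPKM in FF, against 38.0, 2.73 and 10.3 in FFC 1, FFC 2 and FFC 4. Pigy, another subunit of that enzyme, measured 2.58, 0.0307, 0.0170 and 0.237 FPKM in FF, is listed at 0 in FFC 1, and measured 0.0661, 0.00694 and 1.29 in FFC 2 to FFC 4. Together with Piga, 3 of the 7 genes of the first step thus had no test, Piga and Pigy because their mean was under 1 FPKM. The client gene Nt5e, which encodes an ecto-nucleotidase, measured 0.748, 0.156, 1.82 and 0.712 FPKM in FF, against 0.235, 0.0471 and 0.0414 in FFC 1 to FFC 3, and is listed at 0 in FFC 4.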
